A study of Arabidopsis thaliana with 6 samples.

Results

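Histones package DNA into nucleosomes, and their genes form large families of near-identical copies in Arabidopsis thaliana. The list examined here held 41 such genes, chosen by locus: 8 for H4, 5 for H3.1, 3 for H3.3, 12 for H2A and its variants, 10 for H2B and 3 for the linker histone H1. Of the 41, 12 had an array probe set assigned to that gene alone, out of 13333 genes with such a probe set in the whole series. These 12 were 9 H2B genes, the linker histone genes AT1G06760 and AT2G30620, and HIS1-3, the gene of the linker variant H1.3. The 16 H4, H3.1 and H3.3 genes appeared only on 13 probe sets that the annotation assigns to every gene of a type at once. Which of these genes each probe set reads cannot be told from that annotation, so the values are given by family. The remaining 13 genes, which were all 12 of H2A, H2A.X, H2A.W and H2A.Z and the H2B gene HTB9, had no named probe set of their own and were not analysed here.

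The arrays compared whole seedlings of the ecotype Columbia 0 that had received 5 µM of a synthetic compound for 24 h with seedlings given an equal amount of the solvent dimethyl sulfoxide (DMSO). The compound is the 2-(2,4-dichlorophenoxy)propanamide of an aniline that bears isobutyrylamino and methoxy groups. Each group had 3 arrays, labelled as biological replicates 1 to 3, and each array held seedlings pooled from 24 wells of 5 seeds. All seedlings were 7 days old at treatment and grew with 16 h of light and 8 h of dark. Values are log2 expression values after RMA (background correction, quantile normalization and summary of the probes of a set), with array medians between 5.75 and 5.79, and every difference below is compound minus DMSO on that log2 scale.

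Core histones H2A, H2B, H3.1 and H4 are made mainly during S phase, when new DNA has to be packaged, and their transcripts are widely read as a sign of dividing cells. Replacement variants such as H3.3 and H2A.Z are also made outside S phase and enter chromatin without replication. In plants the histone messages carry poly(A) tails, unlike most of those of animals, so labelling from the 3' end can read them. In a whole seedling the dividing cells are a small part, and a lower value can come from fewer such cells or from less RNA per cell, which cannot be told apart.

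After 24 h with the compound, none of the 12 histone genes passed the test in either direction, and 11 of the 12 lay within 0.14 of 0. limma called 0 of 12 at an adjusted p below 0.05, against 0.343% of all 22746 tested probe sets. With the replicate number as a block it also called 0 of 12, against 3.8%. At an unadjusted p below 0.05 the counts were 0 of 12 without the block (5.36% of all) and 1 of 12, HIS1-3, with it (16.0% of all). The block compares arrays of the same replicate number, which resembled each other across the whole array. The 12 differences had a median of -0.01, with 6 above 0 and 6 below, beside a median of 0.01 over all tested probe sets. Their median size was 0.05, beside 0.08 over all. The compound and DMSO arrays overlapped in all 12. Over all probe sets, 9.74% had groups that did not overlap, a share too low for 0 of 12 to set these genes apart.

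**Figure D1:**
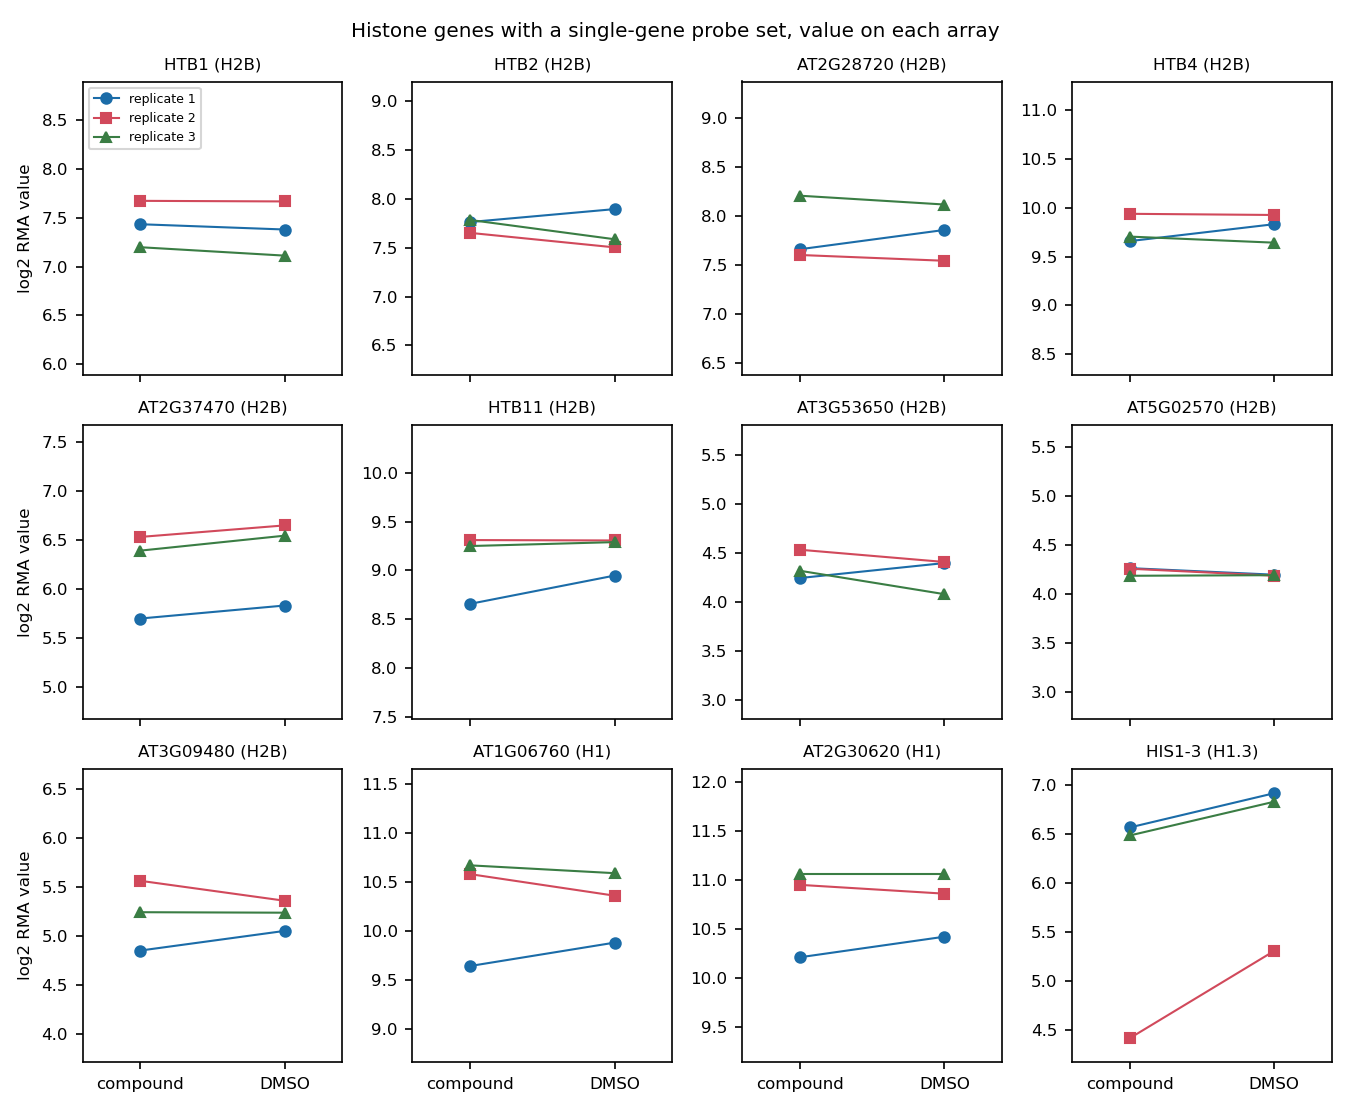
Log2 RMA value of each of the 12 singly read histone genes on the compound arrays (left) and the DMSO arrays (right), with a line joining arrays of the same replicate number. Each panel spans 3 log2 units at its own level. Most lines run nearly flat, at heights that differ between the numbers. The compound array lies below the DMSO array in all 3 numbers for AT2G37470 and HIS1-3, with the wider gaps in HIS1-3.

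H2B forms the nucleosome core together with H2A, and its 9 measured genes lay between -0.13 and 0.07, with a median of 0.00. HTB1 read 7.43, 7.67 and 7.20 on compound arrays 1 to 3, against 7.38, 7.67 and 7.11 on DMSO arrays 1 to 3. Each compound array stood above the DMSO array of its number by at most 0.09, a step smaller than the gaps between numbers. HTB2 read 7.76, 7.65 and 7.78 with the compound and 7.89, 7.5 and 7.59 with DMSO, and its difference of 0.07 (SE 0.12) was the highest of the 12.

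AT2G37470 had the lowest H2B difference, -0.13 (SE 0.30 without the block and 0.07 with it). Its values were 5.70, 6.53 and 6.39 with the compound, against 5.83, 6.65 and 6.54 with DMSO. The compound array was the lower one in all 3 numbers, by 0.13, 0.12 and 0.15, yet the gene missed the threshold (adjusted p = 0.9995, and 0.44 with the block). HTB11 followed at -0.11, with 8.66, 9.31 and 9.25 against 8.95, 9.31 and 9.29. Here the difference came from replicate number 1, at -0.29, while numbers 2 and 3 gave 0.00 and -0.04.

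The other 5 H2B genes were at 0.07 for AT3G53650, 0.04 for AT5G02570, 0.00 for AT3G09480, -0.02 for AT2G28720 and -0.03 for HTB4. AT5G02570 (4.19 to 4.27 over the 6 arrays) and AT3G53650 (4.08 to 4.54) lay close to the lower quartile of the arrays, 3.95 to 4.06. Signal that weak may be background, and a change there can be missed. With the block, the 95% confidence intervals of the 9 H2B genes together ran from 0.804-fold (HTB11) to 1.23-fold (AT3G53650) of the DMSO level. Without the block the widest was that of AT2G37470, from 0.557-fold to 1.49-fold. In the gene order of the TAIR10.1 assembly, 2 coding genes lie between HTB1 and the H4 gene AT1G07820, 1 lies between AT2G28720 and the H4 gene HIS4, and AT5G02570 is the direct neighbour of the H2A.W gene HTA12.

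Linker histones bind the DNA between nucleosomes. AT1G06760 read 9.64, 10.58 and 10.67 with the compound, against 9.88, 10.36 and 10.59 with DMSO, a difference of 0.02 (SE 0.32, and 0.10 with the block). AT2G30620 read 10.21, 10.95 and 11.06 with the compound, against 10.42, 10.86 and 11.06 with DMSO, a difference of -0.04 (SE 0.27, and 0.09 with the block). In both genes the arrays of replicate number 1 were the lowest of their group. Their block intervals ran from 0.857-fold to 1.2-fold and from 0.841-fold to 1.12-fold.

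HIS1-3, whose product H1.3 is a linker variant known to be induced by drought, had the largest difference of the 12. Its values were 6.57, 4.42 and 6.49 with the compound, against 6.92, 5.31 and 6.83 with DMSO. The arrays of number 2 were far below the others in both groups, and the compound array was the lower one within each number, by 0.35, 0.89 and 0.34. The group means were 5.83 ± 1.22 with the compound and 6.35 ± 0.91 with DMSO (SD, n = 3 each). The difference of -0.53, or 1.44-fold lower as measured, missed the threshold in limma without the block (SE 0.69, adjusted p = 0.9995). It also missed it with the block (SE 0.12, adjusted p = 0.0713), where the interval ran from 0.568-fold to 0.846-fold. The adjusted p ranged from 0.0713 to 1.0 over the alternatives, with 0.562 for the replicate number as a random block. Without compound replicate 2 the difference was 0.18, without DMSO replicate 2 it was -1.05, and without both it was -0.35, so its size, and its sign where the pair was broken, rested on the arrays of number 2. A difference at least as large was found in 3.42% of all tested probe sets.

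For the histone families with no singly read gene, none of the 13 probe sets assigned to all H4, all H3.1 or all H3.3 genes was called by limma with or without the block, where the shares over all probe sets were 0.343% and 3.8%. An unadjusted p below 0.05 was found for 0 of 13 without the block and 2 of 13 with it, where the shares over all were 5.36% and 16.0%. These 13 probe sets were added after the data were seen. Probe sets of a family carry the same gene annotation, so whether they read the same or separate genes cannot be told. Their levels are not compared with each other, because different probes bind with different strength.

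H4, which pairs with H3 in the nucleosome core, was lower with the compound on all 5 of its probe sets, by small amounts between -0.32 and -0.11. The compound array was the lower one in all 3 numbers on 4 of the 5, a pattern held by 3 of the 12 singly read genes and 37.6% of all probe sets in one direction or the other. The widest H4 difference, on 252562_s_at, was -0.32 (SE 0.16), with an adjusted p of 0.9995, or 0.191 in the block fit. Its values were 7.35, 7.91 and 7.54 with the compound, against 7.96, 8.06 and 7.75 with DMSO. The gap was 0.61 in number 1 and 0.15 and 0.21 in the others, and the groups overlapped.

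H3.1, the H3 form laid down at replication, gave differences of -0.04 to 0.36 on its 5 probe sets, with a median of 0.05. On 250434_at the values were 7.05, 7.04 and 6.75 with the compound, against 6.84, 6.68 and 6.23 with DMSO. The compound array was the higher one by 0.20, 0.36 and 0.52, and the difference of 0.36 (SE 0.18, adjusted p = 0.9995, or 0.0842 in the block fit) was the highest of any histone probe set. The other 4 probe sets of the same annotation lay between -0.04 and 0.12. On all 5, the DMSO array of number 3 was the lowest of the 6.

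H3.3, the replacement form of H3, was nearly level. Its 3 probe sets lay at -0.04, -0.02 and 0.00, with group means of 11.22, 11.83 and 12.01 with the compound and 11.26, 11.85 and 12.02 with DMSO. On 250397_at the values were 10.93, 11.24 and 11.48 with the compound, against 10.99, 11.36 and 11.42 with DMSO. With the block, the intervals of all 3 probe sets stayed between 0.856-fold and 1.14-fold.

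**Figure D2:**
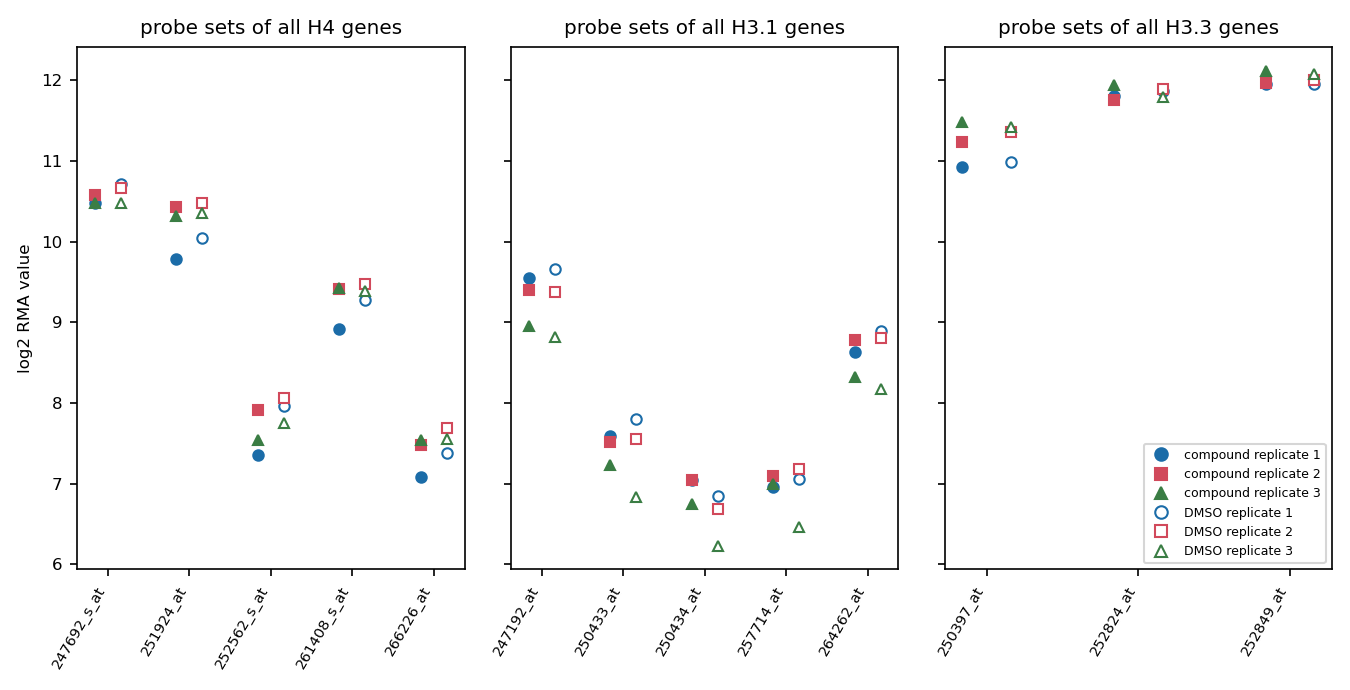
Log2 RMA values of the probe sets assigned to all H4, all H3.1 and all H3.3 genes on each array, with compound arrays filled and to the left and DMSO arrays open and to the right. Heights of different probe sets are not comparable. Within each probe set the filled and open symbols overlap.

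**Figure D3:**
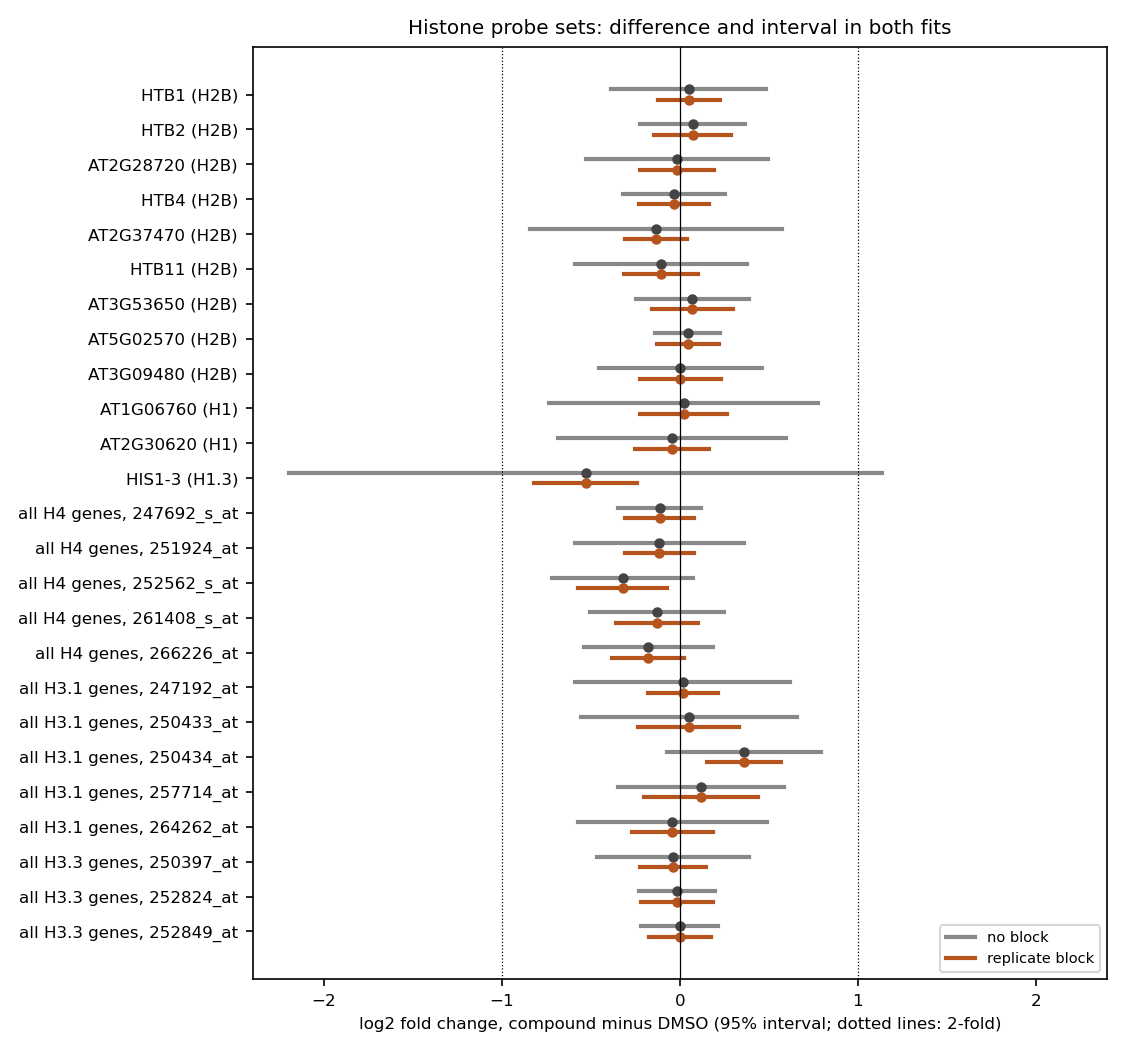
Log2 fold change of the 12 singly read genes and the 13 family probe sets with 95% confidence intervals, grey without and orange with the replicate block; dotted lines mark a 2-fold change. All 25 block intervals lie inside the dotted lines, as do 24 of the 25 intervals without the block, the exception being HIS1-3.

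The contrast of S-phase histones with replacement variants is a possible readout of cell division, and it depended on which probe sets were admitted. With singly read genes only, the 9 H2B genes (median 0.00) stood against HIS1-3 alone (-0.53), a contrast of 0.53. Within replicate numbers 1, 2 and 3 it was 0.20, 0.95 and 0.41, so it carried the wide HIS1-3 value of number 2. With the H4, H3.1 and H3.3 probe sets added, 19 S-phase probe sets (median -0.02) stood against 4 replacement probe sets (median -0.03), and the contrast was 0.01. Within the numbers it was then -0.14, 0.13 and 0.01, without a common sign. The narrowest form, H3.1 against H3.3 of the same core histone, was 0.07, with -0.06, 0.10 and 0.32 within the numbers. No test was made of these contrasts, and H2A.Z is missing from all of them.

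The spread between replicate numbers was wider than the treatment difference for 11 of the 12 histone genes, as it was for 84.2% of all tested probe sets. The mean of the compound and DMSO arrays of a number ranged over 0.51 log2 units between numbers in the median of the 12 genes, beside 0.25 over all tested probe sets. The range also exceeded the size of the treatment difference in all 13 family probe sets. The range and the difference are unlike measures, and noise alone can make the range the wider one. These counts thus do not set the histone probe sets apart. The exception among the 12 genes was AT5G02570, whose signal was close to the lower quartile of the arrays. HIS1-3 had the widest range, 1.88, followed by AT1G06760 at 0.87 and AT2G37470 at 0.83.

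The numbers did not rank the histones alike. Number 1 was lowest for AT1G06760, AT2G30620, AT2G37470, HTB11 and AT3G09480, number 2 for HIS1-3, HTB2 and AT2G28720, and number 3 for HTB1, HTB4, AT3G53650, AT5G02570 and all 5 H3.1 probe sets. What the arrays of a number shared is not given in the labels, and its part in these values was not tested.

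**Figure D4:**
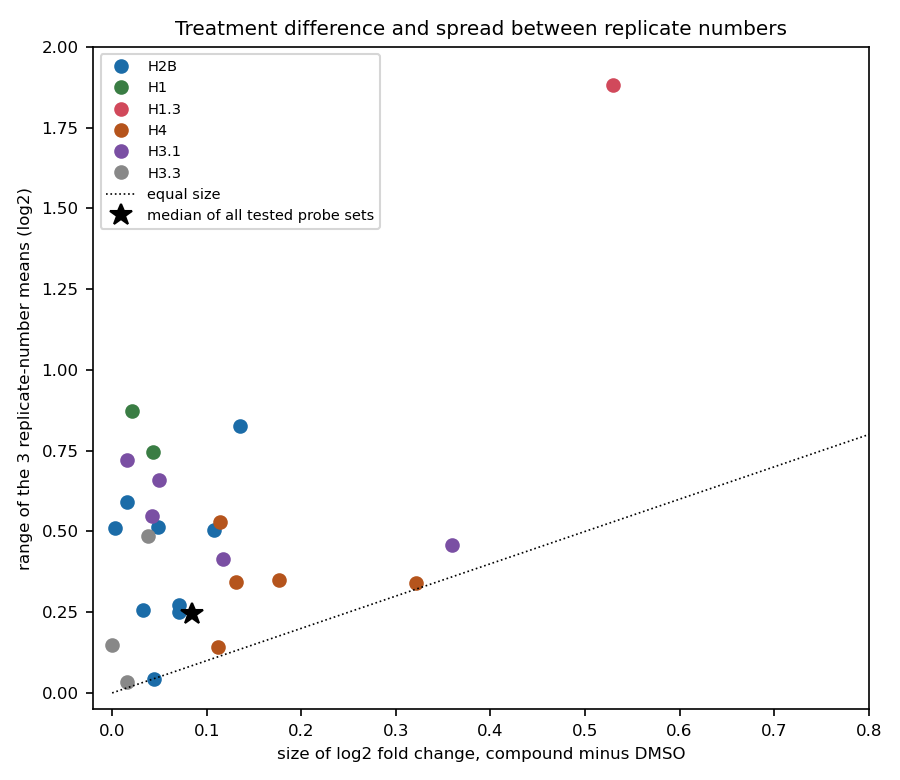
Range of the 3 replicate-number means against the size of the compound minus DMSO difference, both in log2 units, for the 25 histone probe sets coloured by type, with the median of all tested probe sets as a star. All but 1 point, an H2B gene, lie above the dotted line of equal size. The 2 axes are unlike measures, so a place above the line does not show an effect of the replicate number.

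Of 117 entries on 6 lists of cell cycle and chromatin assembly genes, 10 had a singly read probe set. limma called 0 of the 10 without the block and 0 with it, beside 0.343% and 3.8% of all probe sets. At an unadjusted p below 0.05 there were 0 and 2 of the 10, beside 5.36% and 16.0% of all, so these counts do not set the 10 genes apart. Their differences ran from -0.09 to 0.27, with a median of 0.10. The G1/S list of 18 genes was not read at all, and the rest was read in small part, so these counts do not describe the cell cycle as a whole.

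Of 12 histone chaperone entries, SGA2 and ASF1B, which encode the ASF1 chaperones that hand over H3 and H4, lay at -0.02 and 0.00. SGA2 read 7.18, 7.24 and 7.22 with the compound, against 7.25, 7.20 and 7.26 with DMSO. ASF1B read 7.08, 7.13 and 7.07 with the compound, against 7.09, 7.12 and 7.07 with DMSO, and both genes varied by under 0.1 over the 6 arrays. SWC2, of the complex that exchanges H2A for H2A.Z, was the highest of the 10 at 0.27 (SE 0.32, and 0.07 with the block). Its compound arrays, at 6.36, 5.46 and 6.13, were each above the DMSO array of their number, at 6.09, 5.14 and 5.91, and the adjusted p with the block was 0.122.

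Of 33 DNA replication entries, PRL, a subunit of the MCM helicase, lay at 0.14, PSF2, of the GINS complex, at 0.15, and ICU2, the catalytic subunit of DNA polymerase alpha, at 0.06. ICU2 read 3.86 to 4.32 over the 6 arrays, around their lower quartile, so its signal may be background and a change could be missed. PRL had the smallest p of the 3 (adjusted p = 0.9995, and 0.469 with the block), with 6.18, 5.71 and 5.91 against 5.96, 5.68 and 5.75. Of 32 entries for mitosis, the Aurora kinase genes AUR1, AUR2 and AUR3, whose products phosphorylate H3 in mitosis, lay at 0.17, -0.09 and -0.08. AUR1 read 6.85, 6.97 and 6.74 with the compound, against 7.06, 6.57 and 6.43 with DMSO, lower in number 1 and higher in the others. SIM, which encodes an inhibitor of cyclin-dependent kinases, was the only one of 16 brake genes read, at 0.19 (SE 0.13, and an adjusted p of 0.298 in the block fit). Its values were 7.71, 7.92 and 7.75 with the compound, against 7.41, 7.81 and 7.59 with DMSO, so the compound array was the higher one in all 3 numbers.

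On the same arrays all 3 measured genes of early lateral root formation rose, a process in which root cells resume division. LBD16 read 7.4, 7.44 and 7.28 with the compound, against 5.63, 5.85 and 5.79 with DMSO, a difference of 1.61 with a block interval of 2.66-fold to 3.52-fold. LBD29 stood at 1.94, with a block interval of 3.04-fold to 4.86-fold. PUCHI stood at 1.3, but its DMSO arrays read 4.24, 3.99 and 3.85, around the lower quartile of the arrays, so its DMSO signal may be background and its fold change may be understated. Without the block, all 3 lost their call when compound replicate 1, 2 or 3 or DMSO replicate 3 was left out. Those fits called 0, 0, 0 and 1 of all tested probe sets. PUCHI also lost its call without DMSO replicate 2, where 40 of all were called. The differences of all 3 genes stayed at 1.19 or more. Of the root markers meant to check the tissue label, 3 of 8 were read, which leaves the shoot part of that label unchecked. PYK10 averaged 12.73 ± 0.12 with the compound and 12.82 ± 0.18 with DMSO (SD, n = 3 each), and the root hair genes EXPA7 and EXPA18 fell by 2.10 and 1.81. EXPA18 read 5.47, 5.42 and 5.45 with the compound, against 6.88, 7.67 and 7.22 with DMSO, without overlap. Without the block, both lost their call when compound replicate 1, 2 or 3 or DMSO replicate 3 was left out, and EXPA7 also without DMSO replicate 2. In the block fit, EXPA7 lost its call without both arrays of number 3. With any 1 array or pair left out, both differences stayed at -1.59 or below. The part of root hairs or primordia in the histone values was not tested, and the shoot markers on the list were not read here.

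**Figure D5:**
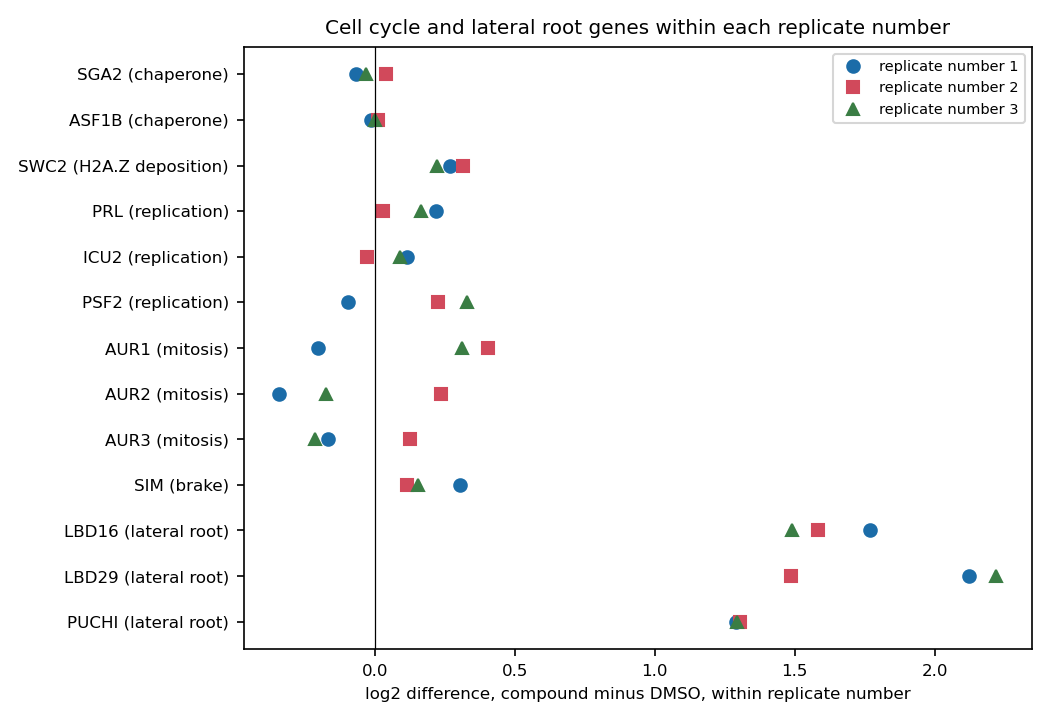
Log2 difference between the compound and DMSO arrays of each replicate number for the 10 measured chaperone, H2A.Z deposition, replication, mitosis and brake genes and for 3 lateral root genes. The first 10 lie within 0.41 of 0, and the lateral root genes lie at 1.29 or above.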

How the data were processed

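RNA (100 ng per array, labelled from the 3' end) was hybridised to Affymetrix ATH1 arrays. The authors deposited 1 log2 value per probe set and array, and the submitters' processing notes name RMA. RMA sets all arrays to common quantiles, so a shift of all transcripts would not show. The software was not given in the sources used here, and the file held no detection calls.

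Of 22810 probe sets, 64 controls were left out. The platform annotation gave 13513 probe sets 1 gene, 503 several and 8730 none. Loci came from gene numbers in NCBI's TAIR10.1 table (13436) or from a locus used as the symbol (48). Histone types were assigned by locus when the list was made. No genome or sequence was used.

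limma 3.58.1 (R 4.3.3; lmFit, eBayes) compared compound with DMSO with treatment as the only term, and Benjamini-Hochberg adjustment ran over all 22746 probe sets with a threshold of 0.05. It was checked on simulated arrays. Deviations from the group means correlated at 0.727, 0.728 and 0.743 between same-numbered arrays, above the limit of 0.1, so the replicate block is given beside results. The numbers in the titles are the only source of this pairing. All 12 singly read genes had 1 probe set each. Every such histone gene was named, with array values for the replacement variants, the 2 other linker histones, the 3 largest differences and some further genes chosen later. Of each list, all genes read were named, with array values for the gene with the smallest p. The members and lists were chosen with earlier results of these data known. The number of arrays limits the precision.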

Additional observations from a re-analysis of the deposited data

How the results depend on the processing

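The count of 0 called histone genes held in each of the 14 alternative fits and with the family probe sets added, and so did the count of 0 of 10 cell cycle genes in the 14 fits. Among these, the fits without compound replicate 1, 2 or 3 called 0 of all probe sets. The fit without DMSO replicate 3 called 1, so a count of 0 genes in those fits carries little information. In the other fits too, the share of all probe sets called was low, so a count of 0 among so few genes was likely. Over all probe sets the calls moved from 78 to 865 with the replicate block and 491 with the random block. With 1 array left out and no block they ran from 0 to 76. With a pair left out, fitted with the block, they ran from 205 to 743, beside 865 for all arrays. The contrast of S-phase and replacement histones, 0.53, ran from -0.25 (without compound replicate 2) to 1.08 (without DMSO replicate 2) with arrays or pairs left out, and was 0.0109 with the family probe sets, which were added after the data were seen; it rests on HIS1-3. Leaving out arrays or pairs changed the sign of these small differences, whose ranges were -0.0877 to 0.189 for HTB1, -0.00795 to 0.188 for HTB2, -0.21 to 0.12 for AT2G28720, -0.118 to 0.0369 for HTB4, -0.39 to 0.12 for AT2G37470, -0.23 to 0.10 for HTB11, -0.0379 to 0.182 for AT3G53650, -0.17 to 0.19 for AT3G09480, -0.18 to 0.35 for AT1G06760, -0.22 to 0.22 for AT2G30620 and -1.05 to 0.18 for HIS1-3. Among the list genes they were -0.0494 to 0.00308 for SGA2, -0.0199 to 0.0126 for ASF1B, -0.0377 to 0.195 for ICU2, -0.0514 to 0.279 for PSF2, -0.26 to 0.10 for AUR2, -0.0173 to 0.532 for SWC2 and -0.214 to 0.0565 for PYK10. Others kept their sign but moved by over 1.5 times, with ranges of 0.0298 to 0.0688 for AT5G02570, 0.0143 to 0.249 for PRL, 0.0429 to 0.359 for AUR1, -0.23 to -0.00859 for AUR3 and 0.0933 to 0.295 for SIM. With each array centred on its median AT3G09480 was at -0.0028. No other setting changed a sign, and the replicate block changed no call of a histone, cell cycle or lateral root gene.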
